A study of Mus musculus with 8 samples.

Results

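The genes of the BCL2 family, which govern survival and death of cells, were followed in RNA that came down with the RNA-binding protein ELAVL1 (HuR) from LbetaT2 cells. Members were all probes annotated to Bcl2, Bcl2l1, Bcl2l2, Mcl1, Bak1, Bax, Bad, Bid, Bcl2l11 or Bbc3. There were 26 such probes among the 25697 of the Illumina mouse bead array, and they covered 9 of its 16593 annotated genes, since Bax was not analysed here. LbetaT2 is a permanent mouse pituitary cell line with features of gonadotropes, the cells that secrete luteinising and follicle-stimulating hormone. The cells had no serum for 16 h, then received GnRH, the hypothalamic hormone that drives gonadotropes, or its vehicle during 30 min. RNA that came down with ELAVL1 was recovered with an antibody. Each of the 4 GnRH and 4 vehicle samples was hybridised to 1 array, and cell line, serum-free period and antibody were common to both groups. Whether replicates were separate cultures is not said in the labels, and the p-values therefore cover a spread that may be technical. Neither input RNA nor pull-downs with a control antibody were used here, so bound RNA and RNA carried over without binding cannot be told apart. Each value is thus how much of a transcript was in the pull-down, and tighter binding and more of the transcript in the cells cannot be told apart, nor can fewer cells with a transcript and less of it per cell.

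BCL2 family proteins decide whether the outer mitochondrial membrane is opened in apoptosis. BCL2, BCL-XL (from Bcl2l1), BCL-W (from Bcl2l2) and MCL1 hold it closed, BAX and BAK open it, and the BH3-only proteins BAD, BID, BIM (from Bcl2l11) and PUMA (from Bbc3) either neutralise the survival proteins or activate BAX and BAK. ELAVL1 binds U-rich and AU-rich elements in messengers, and Bcl2 and Mcl1 are known from other cells as transcripts it binds. Mcl1 is known as an early-response gene in several cell types, with a short-lived messenger and protein.

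The start regions of Bcl2 and Mcl1, the members known as ELAVL1 targets from other cells, are shown as the sequence around their transcript starts. They are given as RefSeq lists them on GRCm38.p6, from 250 bases before to 50 after the transcript start, with matches to the half-site of the cAMP response element (TGACG) and the GC box (GGGCGG) in capitals on either strand. Bcl2 lies on the minus strand at chr1:106714241-106714540 and Mcl1 on the plus strand at chr3:95658471-95658770.
Bcl2: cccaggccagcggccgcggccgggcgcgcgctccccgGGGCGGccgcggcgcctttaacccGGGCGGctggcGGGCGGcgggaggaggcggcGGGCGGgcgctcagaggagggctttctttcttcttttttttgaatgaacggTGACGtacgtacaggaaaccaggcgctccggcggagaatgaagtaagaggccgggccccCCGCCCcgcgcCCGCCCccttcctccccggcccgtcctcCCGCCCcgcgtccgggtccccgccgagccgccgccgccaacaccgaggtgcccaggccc
Mcl1: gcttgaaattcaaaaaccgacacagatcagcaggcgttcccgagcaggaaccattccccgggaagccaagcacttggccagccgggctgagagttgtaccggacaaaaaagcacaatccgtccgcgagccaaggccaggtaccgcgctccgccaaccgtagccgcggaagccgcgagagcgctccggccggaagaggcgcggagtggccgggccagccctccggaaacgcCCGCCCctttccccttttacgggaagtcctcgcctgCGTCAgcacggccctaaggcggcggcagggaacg
The Bcl2 region held 7 GC boxes and 1 half-site, and the Mcl1 region 1 of each. The Mcl1 half-site, at bases 267 to 271, lies within the transcript, and the other marked stretches lie before the starts. Neither held the full cAMP response element (TGACGTCA), an EGR site (GCGNGGGCG) or a TATA box (TATAAA), all searched on both strands. Among all 32851 start regions of the same length, 35.7% held a GC box, 20.8% the half-site, 5.55% an EGR site, 1.79% the full element and 13.6% a TATA box. Over the 16 start regions of the 10 members the corresponding counts were 11, 3, 3, 0 and 0. The half-site lies within the full element, and several regions of 1 gene can overlap. A match is a run of letters, not a measured binding site.

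Raw signal and detection p-values were used as deposited, and log2 signal was obtained after background correction and quantile normalization. A probe counts as above background on an array where its detection p is below 0.05. Of the gonadotrope markers, Gnrhr, Cga, Isl1, Gata2, Pitx1 and Egr1 were above background on all 8 arrays, Nr5a1 on 4, and Lhb and Fshb on none. No marker of the other pituitary lineages (0 of 6 with a probe) or of blood (0 of 5) was tested, whereas 4 of 10 stroma and endothelium markers were, with Pecam1 and Cdh5 above background on all 8 arrays and the collagens, Dcn, Lum and Pdgfrb on none. The response to the hormone was present in these samples: Fos and Egr1, known as early-response genes, stood 19.6-fold and 13.9-fold higher after GnRH (limma adjusted p = 2.34e-05 and 2.55e-06).

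Of the 26 member probes 20 were above background on at least 4 of 8 arrays and were tested, and each of the 9 genes had at least 1 of them. None of the 20 was called higher or lower after GnRH (limma, Benjamini-Hochberg adjusted p below 0.05 over all 11318 tested probes), where 0.265% of all tested probes were called, every one of them higher. At an unadjusted p below 0.05, 1 member probe was higher and 0 were lower, beside 2.09% and 0.813% of all tested probes (2.91% in either direction). The median of the 20 log2 differences (GnRH minus vehicle) was 0.08, their lowest was -0.10 and their highest 0.47, against a median of -0.0080 over all tested probes. By sign, 12 were positive and 8 negative, beside 5441 and 5877 of all tested probes. The adjusted p of each was 1.00 (limma). A share of 0 in 20 is what a background of 0.265% would give, so the count says nothing particular about this family.

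**Figure D1:**
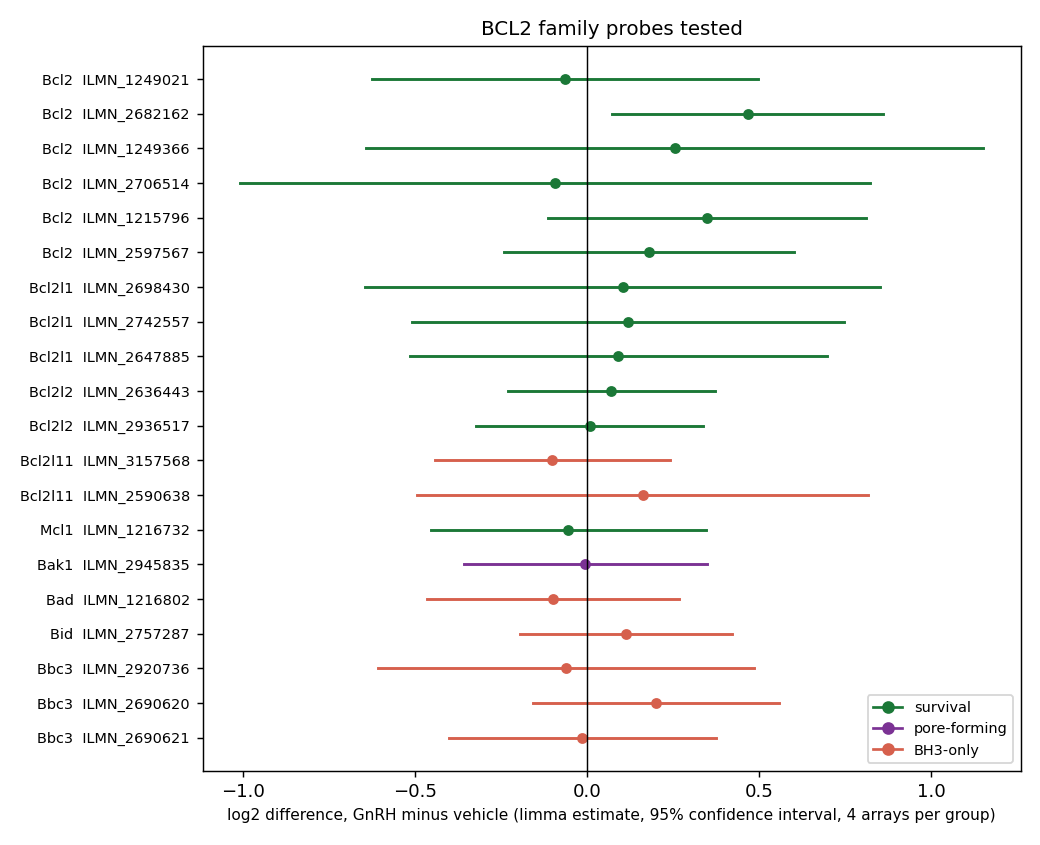
Log2 difference between GnRH and vehicle for the 20 tested probes of the BCL2 family, as points with 95% confidence intervals (limma, 4 arrays per group), coloured by role. Only the interval of Bcl2 probe ILMN_2682162 leaves out 0, from 0.073 to 0.86, before adjustment over all probes.

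Bcl2, the founding survival gene, was represented by 8 probes, 5 annotated to transcript NM_009741 and 3 to transcript NM_177410. Both are RefSeq transcripts of the gene, and an alternative 3′ part is known to give a shorter protein without the membrane anchor. All 3 probes of NM_177410 and 3 of the 5 of NM_009741 were above background on all 8 arrays. The remaining 2, ILMN_1243345 and ILMN_2597272, were above it on none, with log2 signals of 4.22 to 4.39 and 4.17 to 4.32.

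Probe ILMN_2682162 of NM_177410 had log2 signals of 7.80, 7.93, 8.04 and 7.67 in GnRH replicates 1 to 4. In vehicle replicates 1 to 4 it stood at 7.46, 7.64, 7.53 and 6.94. Every GnRH value lay above every vehicle value, by the narrowest margin between GnRH replicate 4 and vehicle replicate 2, and vehicle replicate 4 was the lowest of all. It was the only tested member probe with such separation, which was found upward for 1.53% and downward for 0.618% of all tested probes. The difference was 0.47 ± 0.18 on the log2 scale (SE, n = 4 per group), or 1.38-fold, 95% interval 1.05 to 1.82, with an unadjusted p of 0.0246 in the limma fit and an adjusted p of 1.00. Without vehicle replicate 4, the array with the lowest mean raw signal, the difference was 0.32, and the groups stayed separate. In that setting 4.57% of all tested probes had separate groups, higher or lower. The separation depended on scaling. In raw signal the GnRH arrays read 295, 266, 282 and 217 and the vehicle arrays 200, 244, 206 and 102, so that vehicle replicate 2 exceeded GnRH replicate 4, and with array medians set equal or with no normalization between arrays the groups overlapped as well.

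The other probes of this transcript had positive differences whose intervals included 0. ILMN_1215796 stood at 6.23, 6.01, 6.56 and 5.72 after GnRH and at 5.55, 6.04, 6.02 and 5.52 in vehicle, a difference of 0.35 ± 0.21 (SE). GnRH replicate 3 was the highest, and GnRH replicates 2 and 4 lay within the vehicle range. ILMN_2597567 stood at 5.98, 5.62, 6.18 and 5.35 after GnRH and at 5.62, 5.77, 5.59 and 5.43 in vehicle, a difference of 0.18 ± 0.19 (SE). Here GnRH replicate 3 was again the highest and GnRH replicate 4 the lowest of all 8, so the groups overlapped fully. Centred on each probe's own mean and averaged over the 3 probes, GnRH arrays ran from -0.18 to 0.50 and vehicle arrays from -0.46 to 0.06.

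The probes of NM_009741 spread more among replicates than between the groups. ILMN_1249366 read 7.77, 7.39, 6.83 and 6.52 in GnRH replicates 1 to 4 and 7.98, 6.68, 6.93 and 5.91 in vehicle replicates 1 to 4. Its highest and lowest values, 2.07 log2 units apart, were both vehicle arrays, replicate 1 and replicate 4. ILMN_2706514 read 6.99, 6.61, 6.10 and 5.65 after GnRH and 7.56, 6.12, 6.54 and 5.51 in vehicle, with the same 2 vehicle arrays at its ends. ILMN_1249021 read 8.87, 8.71, 8.01 and 7.80 after GnRH and 8.80, 8.18, 8.44 and 8.23 in vehicle. In ILMN_1249021, GnRH replicate 1 was the highest and GnRH replicate 4 the lowest. Their differences were 0.25 ± 0.40, -0.093 ± 0.41 and -0.064 ± 0.25 (log2, SE). The interval of ILMN_2706514, -1.01 to 0.82, leaves room for a change of about 1 log2 unit downward, and that of ILMN_1249366, -0.64 to 1.15, upward. Whether the response of the transcripts differs was not tested.

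**Figure D2:**
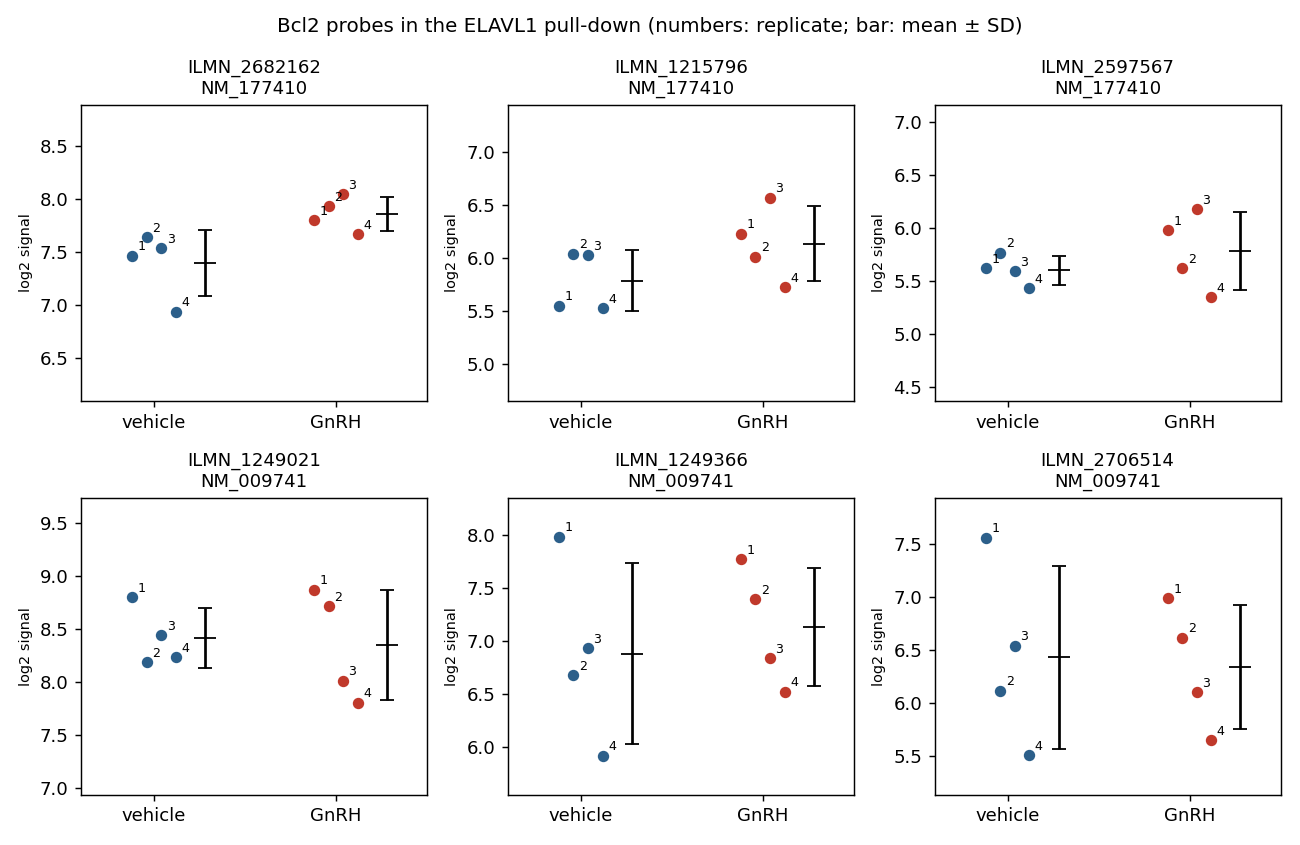
Log2 signal of the 6 tested Bcl2 probes by group, with the annotated transcript under the probe name, replicate numbers beside the points and the mean ± SD (n = 4) as a bar, on axes of equal length. Over the 8 arrays the probes of NM_177410 (top) cover 0.83 to 1.11 log2 units and those of NM_009741 (bottom) 1.06 to 2.07.

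Among the other survival genes, Bcl2l1, which encodes BCL-XL, was read by 3 probes. ILMN_2698430 stood at 7.36, 7.14, 6.60 and 6.89 after GnRH and at 8.02, 6.72, 6.42 and 6.41 in vehicle. Vehicle replicate 1 was the highest array and vehicle replicates 3 and 4 the lowest, with the GnRH values between them. Its difference was 0.10 ± 0.34 (log2, SE). The probes ILMN_2742557 and ILMN_2647885 were above background on 4 GnRH and 2 vehicle arrays each, the second having GnRH values of 5.06, 4.82, 5.07 and 4.73 and vehicle values of 5.76, 4.64, 4.53 and 4.38. Vehicle replicate 1 was their highest array too, and their differences were 0.12 ± 0.28 and 0.091 ± 0.27. Without vehicle replicate 1 the groups of ILMN_2647885 no longer overlapped, as for 9.98% of all tested probes, higher or lower, in that setting. Its difference was then 0.40 (limma adjusted p = 0.454), and that of ILMN_2698430 was 0.48. Leaving out other vehicle arrays turned both negative, to -0.0073 and -0.054 without vehicle replicate 3 and to -0.056 and -0.059 without vehicle replicate 4. ILMN_2647885 met the filter through its GnRH arrays alone, and its remaining vehicle values were near background.

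Bcl2l2, which encodes BCL-W, varied least over the 8 arrays among the survival genes. ILMN_2636443 stood at 8.46, 8.36, 8.55 and 8.29 after GnRH and at 8.47, 8.19, 8.25 and 8.47 in vehicle, and all 8 values lay within 0.36 log2 units. ILMN_2936517 ranged over 7.46 to 7.85. Their differences were 0.07 ± 0.14 and 0.0071 ± 0.15 (log2, SE), with fold changes of 1.05-fold, 95% interval 0.852 to 1.29, and 1.00-fold, 95% interval 0.799 to 1.26. A further Bcl2l2 probe, ILMN_2601572, was above background on 1 vehicle array only and was not tested.

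Mcl1 was read by a single probe, ILMN_1216732. It stood at 8.99, 9.09, 9.29 and 9.50 after GnRH and at 8.88, 9.26, 9.49 and 9.46 in vehicle, with group means of 9.22 ± 0.23 and 9.27 ± 0.28 (SD, n = 4). The groups overlapped almost completely. Their difference was -0.055 ± 0.18 (log2, SE), which is 0.963-fold, 95% interval 0.730 to 1.27. The upper bound lies far below the rise of Fos and Egr1 in the same samples.

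Of the proteins that open the membrane only BAK was represented. Bak1 probe ILMN_2945835 was above background on 2 GnRH and 2 vehicle arrays, its log2 signals ran over 4.35 to 4.90, and its difference was -0.0053 ± 0.16 (SE). At a signal this close to background little can be read from it.

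The BH3-only genes had 7 tested probes, and none was called. Bbc3, which encodes PUMA, read on ILMN_2920736 8.16, 8.41, 8.70 and 8.22 after GnRH and 7.97, 9.00, 8.75 and 8.02 in vehicle. Vehicle arrays took both ends of this range, replicate 2 the upper and replicate 1 the lower. The difference was -0.061 ± 0.25 (log2, SE). Bbc3 probes ILMN_2690620 and ILMN_2690621 ranged over 4.86 to 5.46 and 4.77 to 5.42, with differences of 0.20 ± 0.16 and -0.014 ± 0.18.

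Bcl2l11, which encodes BIM, gave unlike patterns on its 2 tested probes. ILMN_3157568, annotated to NM_207680, stood at 9.19, 9.29, 8.99 and 9.22 after GnRH and at 9.43, 8.97, 9.21 and 9.48 in vehicle. ILMN_2590638, annotated to NM_009754, stood at 7.17, 6.86, 6.85 and 6.38 after GnRH and at 7.58, 6.25, 6.58 and 6.22 in vehicle. The first varied by 0.51 log2 units over the 8 arrays and the second by 1.36, again with vehicle replicate 1 at the top and vehicle replicate 4 at the bottom. Their differences were -0.10 ± 0.15 and 0.16 ± 0.30 (log2, SE). Of the 2 untested Bcl2l11 probes, ILMN_1229255 was above background on 1 GnRH array and ILMN_3078327 on none. The latter had all its GnRH values, 4.31, 4.32, 4.27 and 4.37, below its vehicle values, 4.47, 4.45, 4.43 and 4.53, an order among background readings.

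Bad, whose protein releases BAX and BAK by binding BCL2 and BCL-XL, was above background on all 8 arrays. ILMN_1216802 stood at 5.46, 5.54, 5.18 and 5.61 after GnRH and 5.33, 5.46, 5.49 and 5.90 in vehicle, overlapping groups with a difference of -0.10 ± 0.17 (log2, SE). Bid, whose protein is cut by caspase-8 to link death receptors to mitochondria, was near background. ILMN_2757287 was above background on 3 GnRH arrays and 1 vehicle array and differed by 0.11 ± 0.14, and ILMN_3161878 was above it on none.

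Several members had an order along the sample numbers that the labels give, from 1 to 8, and these numbers are balanced between the groups. Bcl2 probe ILMN_1249366 went from 7.98 in sample 1, a vehicle sample, through 7.77 and 7.39 in samples 2 and 3, which had GnRH, to 5.91 in sample 8, a vehicle sample. In a limma fit with group and sample number, a form chosen after the values were seen, its slope was -0.26 ± 0.034 log2 units per sample number (SE), and that of ILMN_2706514 was -0.26 ± 0.039. The slopes of Bcl2l1 probe ILMN_2698430 and Bcl2l11 probe ILMN_2590638 were -0.19 ± 0.047 and -0.16 ± 0.043. Mcl1 ran the other way, from 8.88 in sample 1 to 9.46 in sample 8, with a slope of 0.089 ± 0.029. Bcl2l2, the 3 Bcl2 probes of NM_177410, Bcl2l11 probe ILMN_3157568, Bad, Bid, Bak1 and Bbc3 had slopes between -0.05 and 0.04, none at an unadjusted p below 0.05.

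In all, 8 of 20 member probes had a slope with an unadjusted p below 0.05 (limma), 7 falling and 1 rising, where 16.7% of all tested probes did (9.19% falling and 7.47% rising). The 7 were all 3 Bcl2l1 probes, the 3 Bcl2 probes of NM_009741 and Bcl2l11 probe ILMN_2590638, so that probes of 1 gene recur and are not independent. No slope passed adjustment, among members or among all tested probes (0% called), and the lowest adjusted p of a member was 0.0904 (limma). The count fell to 4 of 19 without vehicle replicate 1, where 7.48% of all tested probes had such a slope. With GnRH replicate 3 left out 2 member slopes passed, of 628 among all tested probes. Without vehicle replicate 2 the 2 slopes that passed were both of members, with array medians set equal 1 of 3 was, and with no normalization between arrays 5 of 343 were. What the sample number stands for is not given in the labels. Mean raw signal also differed among the samples, at 204 to 255 in samples 1 to 7 and 142 in sample 8. The part of brightness in these slopes was not tested. Since the numbers average the same in both groups, the group differences above do not change when sample number is added to the fit, and no member was called with it (lowest adjusted p 0.999, limma).

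**Figure D3:**
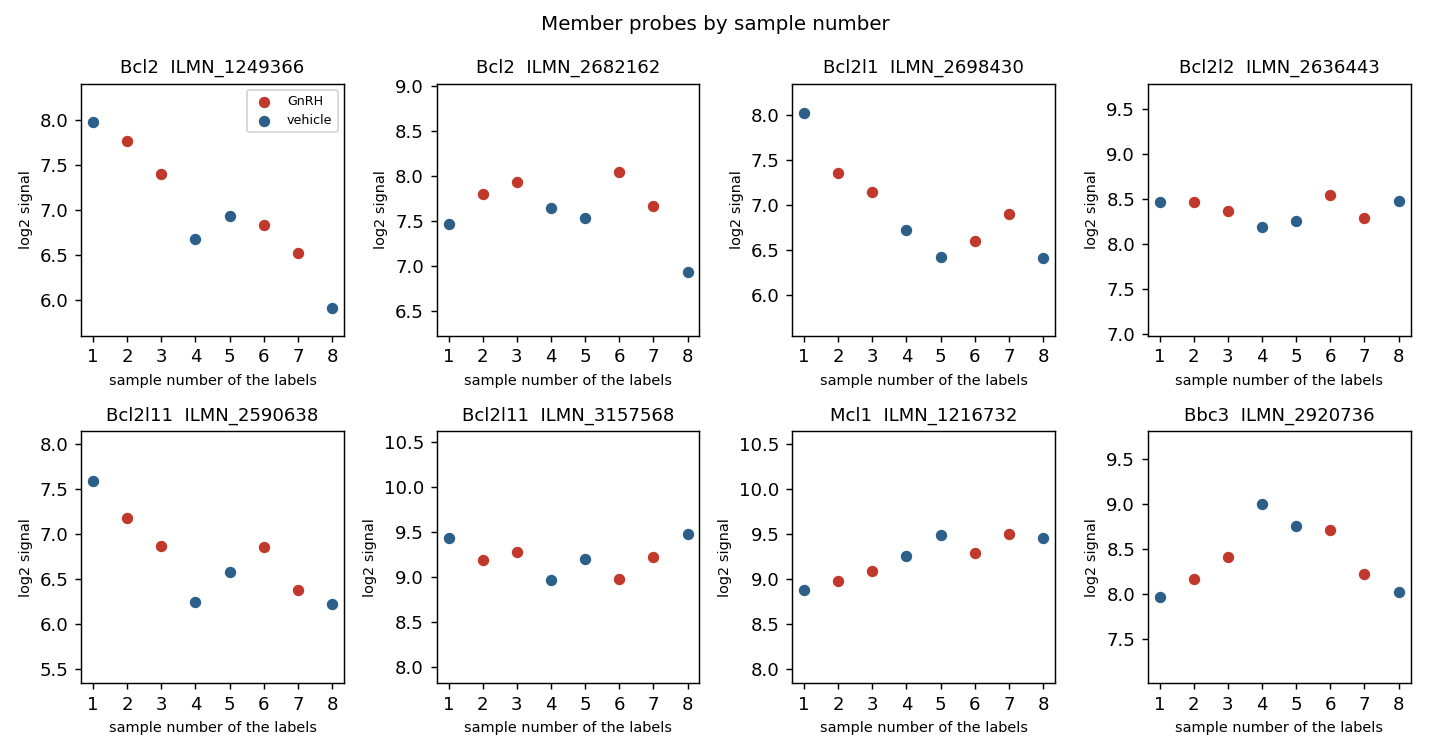
Log2 signal of 8 member probes against the sample number of the labels, with GnRH samples in red and vehicle samples in blue, on axes of equal length. Bcl2 ILMN_1249366, Bcl2l1 ILMN_2698430 and Bcl2l11 ILMN_2590638 are highest in sample 1, and Mcl1 is lowest there.

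By the Pearson correlation of log2 signal over the 8 arrays, the patterns most like Bcl2 probe ILMN_1249021, taken as the Bcl2 probe with the highest mean, were those of Zfp704 (0.966), Chmp3 (0.964) and Med22 (0.949). Those most like Mcl1 were of Ecpas (0.982), Elf2 (0.979) and Pan2 (0.973). These are the highest among tested probes of other genes with a gene symbol, each gene counted once and placeholder symbols (such as those ending in Rik) left out. They share arrays and sample order, so they serve as a description only.

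The wider death machinery was taken from 4 lists of genes. Among other BCL2 and BNIP genes, 10 of 19 genes were tested with 10 probes, 0 were called higher and 0 lower (1 higher at an unadjusted p below 0.05, limma), and the median log2 difference was 0.01, beside -0.0080 over all tested probes. Bok, a relative of BAX and BAK, had the lowest p of this list. It stood at 5.28, 5.34, 5.16 and 5.53 after GnRH and at 4.36, 4.89, 4.81 and 4.51 in vehicle. All GnRH values exceeded all vehicle values, and the probe was above background on 4 GnRH arrays but on only 2 vehicle arrays. Its difference of 0.69 ± 0.16 (log2, SE) had an unadjusted p of 0.00151 and an adjusted p of 0.356 (limma). The size depended on processing: the difference was 0.33 with an offset of 50, 0.48 without background correction and 0.75 with no normalization between arrays. Bcl2l13, a mitochondrial family member, was also separated upward, with 6.43, 6.34, 6.49 and 6.73 after GnRH against 6.10, 6.33, 6.29 and 6.15 in vehicle. The margin was narrow, 6.34 against 6.33, and the difference was 0.28 ± 0.14 (log2, SE; unadjusted p = 0.0725, limma). Upward separation was found in 2 of the 10 probes here and in 1.53% of all tested probes. Bok met the filter on detection through its GnRH arrays, where it is high, so no excess is read from this count. Bnip3 and Bnip3l, mitophagy receptors related to the family, differed by -0.31 ± 0.22 and -0.21 ± 0.16, with Bnip3 above background on 1 GnRH and 3 vehicle arrays.

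The apoptosome, caspases and their inhibitors had 17 of 29 genes tested with 25 probes, 0 called in either direction (0 at an unadjusted p below 0.05, limma), and a median of -0.01. Cycs, which encodes cytochrome c, differed by -0.39 ± 0.19 and -0.10 ± 0.14 on its 2 probes (log2, SE). The probes of Aifm1, the apoptosis-inducing factor, disagreed in sign, at -0.22 ± 0.14 and 0.18 ± 0.14, and so did those of Birc2, which encodes the ubiquitin ligase cIAP1, at 0.33 ± 0.19 and -0.029 ± 0.22. Naip5 stood at 0.37 ± 0.40.

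Regulators and partners of BCL2 proteins had 31 of 44 genes tested with 42 probes. Of the differences 29 were positive and 13 negative, beside 5441 and 5877 over all tested probes. Of the probes 0 were called (0 at an unadjusted p below 0.05, limma), and the median was 0.05. Pim2 and Pim3 encode kinases that phosphorylate BAD. Both Pim2 probes were positive, at 0.31 ± 0.15 and 0.28 ± 0.16, and Pim3 stood at 0.33 ± 0.16 (log2, SE). Bcap31, an endoplasmic reticulum protein that binds BCL2, gave 0.44 ± 0.20 and 0.18 ± 0.13, and Fbxw7, a ubiquitin ligase subunit that targets MCL1, gave -0.32 ± 0.17 and -0.093 ± 0.17. None of these passed (limma adjusted p = 1.00 for each).

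The death receptor pathway had 5 of 13 genes tested with 9 probes, 0 called (0 at an unadjusted p below 0.05, limma), and a median of -0.18. The difference was negative for 8 probes and positive for 1, beside 5877 and 5441 over all tested probes. Fadd, the adaptor of death receptors, supplied 4 of the 9 probes, at -0.23 ± 0.17, -0.18 ± 0.15, -0.18 ± 0.17 and -0.018 ± 0.18. Daxx stood at -0.28 ± 0.19, Tnfrsf10b, a TRAIL receptor, at -0.25 ± 0.22, and Faim, an inhibitor of FAS signalling, at -0.21 ± 0.17 and -0.03 ± 0.22 (log2, SE). No probe of this list had separate groups.

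**Figure D4:**
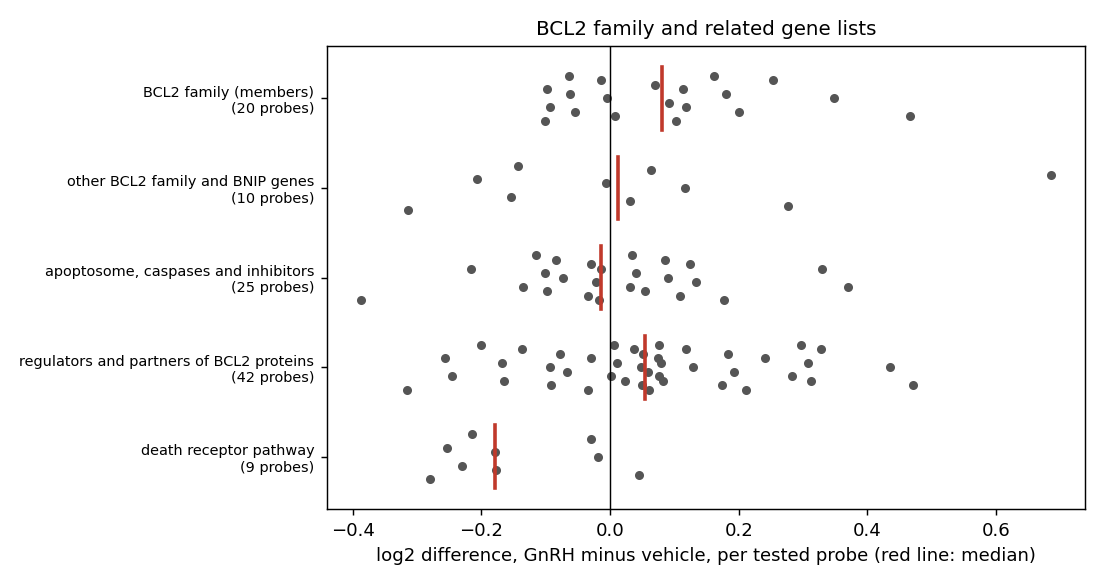
Log2 difference between GnRH and vehicle for each tested probe of the BCL2 family and of the 4 other lists, with the median of each list as a red line. No point passed adjustment over all tested probes, and the point farthest right is Bok at 0.69.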

How the data were processed

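The authors deposited 1 signal intensity (mean of the beads, linear scale) and 1 detection p-value per probe and array, per the file headers. A second deposited table holds processed intensity values, and how it was normalized, the array software and the genome build are not stated in those sources. Sample titles gave the groups. Array columns carry the labels' sample numbers. Gene symbols are those of the platform annotation, brought up to date with RefSeq's gene table (GRCm38.p6): 23978 of 25697 probes had 1 symbol, 0 several and 1719 none. Median raw signal per array was 33.4 to 42.1, and 42.0% to 45.4% of probes had a detection p below 0.05.

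Background was corrected by normexp, fitted with the detection p-values, before an offset of 16, quantile normalization and the log2 step (limma 3.58.1, R 4.3.3). Quantile normalization gives all arrays the same spread of signal. It takes out differences in yield between pull-downs and would also take out a general change in the RNA recovered after GnRH. Which of these was present was not tested. Tested probes had a detection p below 0.05 on 4 or more of the 8 arrays. They were compared singly with lmFit and eBayes, unpaired, with p-values adjusted over all 11318 (Benjamini-Hochberg, 0.05). Every member probe is named, as are, from each other list, the up to 4 genes with the lowest unadjusted p, and Fos, Egr1 and Elavl1. The members and lists were chosen with earlier results of these data known, so their direction is no independent evidence. The fit on sample number was added after the values were seen. Start regions came from RefSeq, where all 10 members matched by symbol. No 2 arrays held identical signals. With 4 arrays per group, precision is limited.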

Additional observations from a re-analysis of the deposited data

Results flagged for a closer look

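A sample far from the other 3 of its group was looked for in 98 groups, those of the tested member probes and of the named genes, and 2 were found, where chance gives about 5%. No group of a BCL2 family member was among them. Pim2 probe ILMN_2703566 had GnRH replicate 3 at a log2 signal of 4.60, below the other GnRH arrays at 4.78 to 4.81, on a probe above background on 3 of those 4 arrays. Tnfrsf10b probe ILMN_2945095 had vehicle replicate 4 at 8.17, above the other vehicle arrays at 7.78 to 7.82.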

How the results depend on the processing

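No member probe was called under any of the 18 alternatives, of which 8 leave out an array. Of the other 10, 5 leave the differences as they are and 5 change the values, and under these 5 alternatives 84 of 100 member differences kept their direction and 16 turned. With an array left out 122 of 152 kept it and 30 turned. In all, 7 of the 20 probes, among them the 3 of Bcl2 transcript NM_177410, kept their direction in every alternative in which they were tested. Bid, also among them, was tested in only 4 of the 8 that leave out an array. The alternatives share arrays and the 3 Bcl2 probes share a transcript, so these are not independent. The count of all called probes was 14 with no filter on dim probes, and 16 to 26 with an array left out, the lower counts being 18 without GnRH replicate 1, 16 without GnRH replicate 2 and 17 without vehicle replicate 3. Separated member probes numbered 0 with array medians set equal (1.87% of all tested probes, higher or lower, against 2.15% as reported), 0 with no normalization between arrays (2.08%), 2 of 26 with no filter (2.51%), and 1 to 2 with an array left out (2.81% to 9.98%). The count of member slopes at an unadjusted p below 0.05, from alternatives chosen after seeing the data, was 4 to 8 with an array left out (7.48% to 22.4% of all tested probes), 10 of 20 with no normalization between arrays (27.0%) and 9 of 26 with no filter (11.5%).

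With array medians set equal, where the median of all tested probes was 0.069, differences turned to 0.025 (Bak1), 0.018 (Bbc3 ILMN_2920736), 0.070 (Bbc3 ILMN_2690621), 0.034 (Bcl2 ILMN_1249021) and 0.034 (Mcl1). With no normalization between arrays, where the median of all tested probes shifted to 0.11 and all 20 member differences were positive, they turned to 0.029 (Bad), 0.068 (Bak1), 0.061 (Bbc3 ILMN_2920736), 0.11 (Bbc3 ILMN_2690621), 0.077 (Bcl2 ILMN_1249021), 0.040 (Bcl2 ILMN_2706514), 0.033 (Bcl2l11 ILMN_3157568) and 0.077 (Mcl1). Only Bbc3 ILMN_2690621 lay above the median of all tested probes, narrowly, at 0.0700 against 0.0693 and at 0.1133 against 0.1125 in these settings. Without background correction Bak1 was 0.0081, and in the authors' processed values Bak1 was 0.012 and Bbc3 ILMN_2690621 0.016. The cause of these turns was not tested.

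With an array left out, differences that changed sign ran over -0.17 to 0.018 (Bad), -0.086 to 0.037 (Bak1), -0.22 to 0.12 (Bbc3 ILMN_2920736), -0.12 to 0.10 (Bbc3 ILMN_2690621), -0.24 to 0.12 (Bcl2 ILMN_1249021), -0.067 to 0.62 (Bcl2 ILMN_1249366), -0.40 to 0.28 (Bcl2 ILMN_2706514), -0.059 to 0.48 (Bcl2l1 ILMN_2698430), -0.056 to 0.40 (Bcl2l1 ILMN_2647885), -0.050 to 0.39 (Bcl2l1 ILMN_2742557), -0.058 to 0.062 (Bcl2l2 ILMN_2936517) and -0.19 to 0.023 (Mcl1).

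Samples with the same replicate number deviated together in replicates 1, 3 and 4 (correlation of deviations 0.724, 0.257 and 0.649). They did not in replicate 2 (-0.227). In replicates 1 and 4 each sample was most like its partner in the other group. Samples of the same replicate number also have adjacent sample numbers, so pairing and an order along the sample numbers cannot be told apart. Whether the numbers pair the samples is thus not settled. With replicate number as a block 43 probes were called and no member (lowest adjusted p 0.662, limma). The other 4 lists had 0 called probes under every alternative. Signal near background limits Bak1, Bid and Bcl2l1 probes ILMN_2742557 and ILMN_2647885, and outside the members Bok, Bnip3 and Pim2 probe ILMN_2703566.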

Other observations

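Elavl1, the transcript of the pulled-down protein itself, stood at 12.28, 12.26, 12.14 and 12.01 in GnRH replicates 1 to 4 and at 12.34, 12.55, 12.48 and 12.33 in vehicle. Every GnRH value lay below every vehicle value, as in 0.618% of all tested probes, and the difference of -0.25 ± 0.13 (log2, SE) did not pass (limma adjusted p = 1.00). Its size depended on scaling. With array medians set equal it was -0.098 ± 0.24, and with no normalization between arrays -0.055 ± 0.26 (log2, SE).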
